A study of Homo sapiens with 13 samples.

Results

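The nuclear-encoded subunits of the mitochondrial respiratory chain were followed by bulk RNA-seq in RUES2, a line of human embryonic stem cells, here with SMAD4 fused to GFP. Genes were taken by name. No measured value entered the rule, although earlier results of these data were known when it was set. It took symbols of the NDUFA, NDUFB, NDUFC, NDUFS and NDUFV series, SDHA to SDHD, the UQCR genes with CYC1, COX5 to COX8 and the ATP5 genes. Of 134 matching names, 51 were annotated as pseudogenes and left out, which gave 83 genes of the 61546 features listed. By complex these were 37 genes of complex I, 4 of complex II, 9 of complex III, 14 of complex IV and 19 of complex V. NDUFA4 carries a complex I name and is counted there, although its protein is now placed in complex IV.

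The respiratory chain passes electrons from NADH (complex I) and succinate (complex II) through complexes III and IV to oxygen, and pumps protons out of the mitochondrial matrix. Complex V, the ATP synthase, makes ATP as the protons flow back. Complexes I, III, IV and V are mosaics of proteins encoded in the nucleus and in the mitochondrial genome, whereas complex II is wholly nuclear. Pluripotent stem cells are known for relying largely on glycolysis, and respiration is known to change as they differentiate.

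In the time series, cells carrying a GFP::SMAD4 fusion received 100 ng/mL BMP4 with 5 µM IWP2, which blocks Wnt secretion, in mTeSR1 with ROCK inhibitor, and RNA was collected at 0 h (2 libraries) and at 4, 12, 20, 28 and 42 h (1 library each). Labels at 0 h carry that treatment too, and those libraries were read as cells at its start. For the dose response, cells of this line were lysed at 5 h after BMP4 and IWP2 at these concentrations with 0, 10, 30, 100 or 300 nM LDN-193189 (LDN), which inhibits BMP receptors, or in mTeSR alone (untreated), with 1 library each. The time series was made from rRNA-depleted RNA and the dose response from polyA-selected RNA, so that levels were compared only within each. All libraries come from 1 cell line, and nothing states that the 0 h libraries were separate cultures, so p-values measure the scatter of these libraries.

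The time series held 37957385 to 71333471 counts per library and the dose response 15600931 to 33989998, with the lowest in the untreated library. Summed pluripotency markers went from 3917 and 3647 CPM (counts scaled to library size by TMM) at 0 h to 875 at 42 h (6 of 6 fell), and amnion markers from 12.6 and 12.7 to 4728 (4 of 6 rose), so the stem cell label held at 0 h. Primitive streak markers summed to at most 5.85 CPM over time, and 1 of 6 could be tested. Neural markers summed to 290 and 346 CPM at 0 h and to 85.9 at 42 h, 77.3 of it TUBB3. Transcripts of the mitochondrial genome took 7.60% and 4.29% of counts in 0 h replicates 1 and 2, 4.23% at 4 h and 2.01% at 42 h. They took 4.22% to 4.49% with BMP4 at 5 h and 7.89% in the untreated library. The 83 nuclear genes took 0.421% and 0.5% at 0 h, 0.387% to 0.420% later, and 0.663% to 0.686% in the dose response.

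Promoters of these genes are known for sites of NRF1, GABP (an ETS factor) and YY1, the regulators that tie nuclear subunit genes together. RefSeq promoters (GRCh38.p14, 250 bases before to 50 after the start) matched 67 of the 83 genes by symbol. Searched on both strands, the NRF1 core GCGCANGCG was found in 22 of them (32.8%) against 7.52% of 35116 promoters of this length, the ETS core CCGGAAGT in 10 (14.9%) against 4.14%, and the YY1 core AAGATGGC in 11 (16.4%) against 2.89%. At least 1 of them stood in 35 members (52.2%) and in 13.3% of all promoters. Among the matched genes called in the tests described later, a core stood in 2 of 5 for the trend over time and in 32 of 59 of those tested and not called, and for LDN in 3 of 8 and 31 of 56. NDUFB11, COX6B2, NDUFB7, NDUFB10 and COX5A were called and hold none of these letters, and ATP5F1D and ATP5MF were not matched. To show where the cores stand, the stretches before the start are printed for 4 called genes that hold one and for COX7C, a called gene that does not, with matches in capitals: NDUFA13 with an ETS core 10 bases before the start, NDUFS7 with an NRF1 core at 74 bases, NDUFA3 with NRF1 cores at 170 and 73 bases, UQCR11 with an ETS core at 117 bases and NRF1 cores at 28 and 9 bases, and COX7C, without a match to these letters. They lie at chr19:19516105-19516224 (plus strand), chr19:1383787-1383906 (plus), chr19:54102675-54102854 (plus), chr19:1605463-1605582 (minus) and chr5:86617821-86617940 (plus). A match describes letters and not a bound site.
NDUFA13: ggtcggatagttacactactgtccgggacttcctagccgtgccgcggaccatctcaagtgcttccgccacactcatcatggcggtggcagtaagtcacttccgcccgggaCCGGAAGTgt
NDUFS7: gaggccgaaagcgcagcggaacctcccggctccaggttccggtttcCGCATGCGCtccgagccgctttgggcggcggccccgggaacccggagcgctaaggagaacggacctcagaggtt
NDUFA3: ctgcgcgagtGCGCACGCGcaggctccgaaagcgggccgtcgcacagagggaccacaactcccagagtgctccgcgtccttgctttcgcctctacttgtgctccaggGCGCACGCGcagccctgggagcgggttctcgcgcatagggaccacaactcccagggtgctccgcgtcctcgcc
UQCR11: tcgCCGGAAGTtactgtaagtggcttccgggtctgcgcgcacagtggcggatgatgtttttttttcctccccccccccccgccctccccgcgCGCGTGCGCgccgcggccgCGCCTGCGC
COX7C: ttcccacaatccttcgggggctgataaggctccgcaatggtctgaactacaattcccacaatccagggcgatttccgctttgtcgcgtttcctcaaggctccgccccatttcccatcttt

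At 0 h the subunit genes spanned a wide range of levels per transcript length, given here as the deposited FPKM (mean ± SD, n = 2). ATP5MF, a small subunit of the membrane part of complex V, was listed highest at 529 ± 183 FPKM, followed by ATP5F1B, the catalytic beta subunit, at 437 ± 51.8. NDUFA13, a complex I subunit, stood at 350 ± 164 and ATP5MC2, which encodes the proton-carrying c subunit, at 333 ± 114 (SD, n = 2). These neighbours do not differ beyond their spread. ATP5MF was counted over an effective length of only 99.1 bases, as its count and FPKM in 0 h replicate 2 imply, against 1460 for ATP5F1B. The 1506 and 4658 counts of ATP5MF at 0 h were thus divided by a short length to give its FPKM. The lowest of the members with a mean of at least 1 CPM was COX6B2 at 1.97 ± 0.064 FPKM, and ATP5F1E, the epsilon subunit of the ATP synthase, came next at 7.65 ± 0.44, over an implied effective length of 2920 bases.

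The isoforms COX7B2, COX6A2, COX7A1, COX8C and ATP5MGL were near or at 0. COX7B2 had 0 counts in all 13 libraries, which allows up to 0.042 to 0.079 CPM per library in the time series and 0.088 to 0.192 in the dose response (3 counts, counting error only). COX6A2 and COX7A1, the isoforms of heart and skeletal muscle, had 0 to 1 and 0 to 6 counts per library in the time series, and COX8C and ATP5MGL 0 to 2 and 4 to 19. In the dose response these 4 genes had 0 to 2 counts. The 5 genes did not reach a mean of 1 CPM and were tested in neither series, which left 78 of 83. Their general counterparts were expressed: COX6A1 stood at 274 ± 54.6 FPKM at 0 h, COX8A at 202 ± 22.4 and COX7A2 at 197 ± 71.2 (SD, n = 2). Within the c subunit trio of complex V, which encodes the same mature protein, ATP5MC2 (333 ± 114 FPKM) was listed above ATP5MC3 (109 ± 18.1) and ATP5MC1 (44.3 ± 0.40).

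The first comparison asked how the members' RNA moved while the cells left pluripotency. Most members were lower at 4 h than at 0 h and came back to about the 0 h level by 42 h, and few followed a line over the whole period. Relative to the 0 h mean, the log2 difference of the median member was −0.32 after 4 h, −0.28 after 12 h, −0.29 after 20 h, −0.16 after 28 h and −0.02 by the 42 h library (of CPM with 0.5 added), while the median of the 15976 genes tested lay between −0.02 and −0.01 throughout. Lower than in both 0 h libraries at 4 h were 59 of 78 members (75.6%), against 32.5% of all genes, and 3 were higher than both, against 34.2%. By complex the median at 4 h was −0.30 in complex I, −0.29 in II, −0.44 in III, −0.40 in IV and −0.35 in V. The median was thus below 0 in all 5. In that order, 27 of 37, 2 of 4, 6 of 9, 8 of 10 and 16 of 18 lay below both 0 h libraries. By 42 h, 32 members (41.0%) were below both 0 h libraries, against 43.2% of all genes, and 23 (29.5%) above both, against 43.5%. At that time the scaling matters, since library totals put the median of all genes at −0.23 and that of members at −0.25. In bulk RNA, fewer cells expressing a gene and less RNA per cell cannot be told apart.

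**Figure D1:**
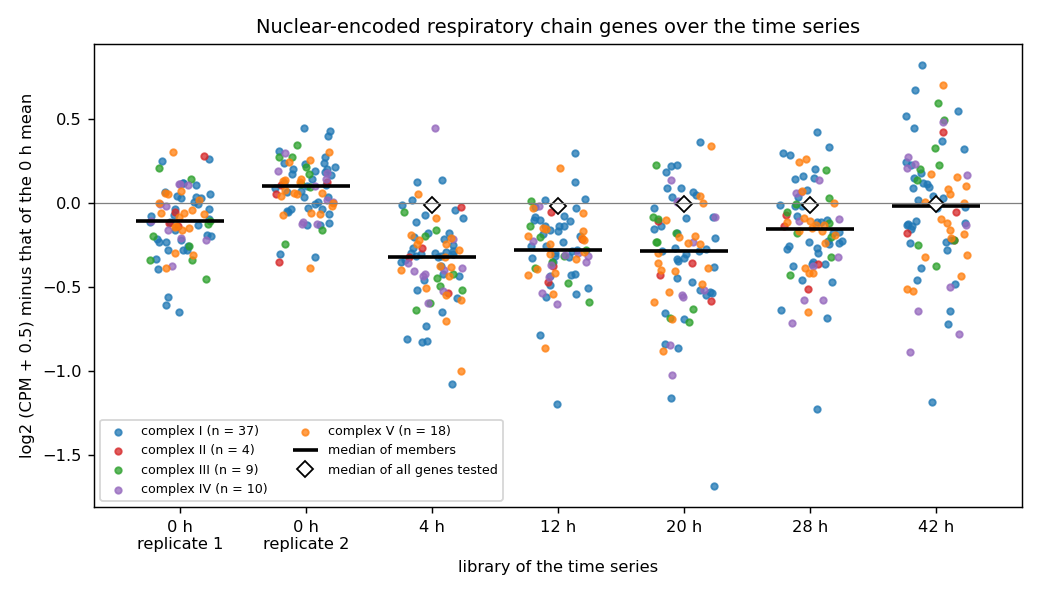
Log2 (CPM + 0.5) of 78 members in each of the 7 time-series libraries, minus that of the 0 h mean. Points are members coloured by complex, bars are medians of members and open diamonds medians of all genes tested. Bars lie at −0.32 at 4 h and −0.02 at 42 h, and the 0 h libraries stand 0.21 apart.

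No test bears on a single time after 0 h, which had 1 library. The 0 h libraries themselves differed, with the median member 0.21 lower in replicate 1 than in replicate 2 (54 of 78 lower) where the median of all genes was 0.04 higher. The median at 4 h was −0.24 against replicate 1 and −0.39 against replicate 2. With the other scalings and FPKM, 50 to 60 members were below both 0 h libraries at 4 h, against 23.6% to 33.8% of genes. Members are short, with a median transcript of 781 bases against 3154 for all genes tested, and in the quartile of shortest genes (122 to 1885 bases) the median at 4 h was −0.14 over 3991 genes and −0.38 over the 61 members among them. The part of transcript length in the 4 h values was not tested beyond this.

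The complex I gene NDUFS5, an accessory subunit on the intermembrane-space side, had the largest difference at 4 h. It stood at 55.3 and 73.7 CPM at 0 h and at 30.2, 27.8, 19.7, 27.2 and 28.1 CPM from 4 to 42 h. Every later library was thus below both 0 h libraries, with no overlap. Its line over hours fell short of the threshold (fitted change −1.16 ± 0.46 SE over 42 h, edgeR adjusted p = 0.0797). ATP5MF had 39.2 and 63.8 CPM at 0 h and 25.5, 28.1, 27.7, 32.7 and 35.9 CPM later, again below both 0 h libraries throughout. It shares exon sequence on its own strand with PTCD1 (23.3 to 29.1 CPM over time) and ATP5MF-PTCD1 (11.7 to 18.4 CPM), so its reads are uncertain. NDUFS6, a zinc-binding complex I subunit needed late in assembly, had 21.3 and 32.7 CPM at 0 h and 11.8 to 17.2 later. NDUFS1, the largest subunit of the electron input arm of complex I, was not lower at 4 h, with 137 and 116 CPM at 0 h and 139 at 4 h. It ended at 108 at 42 h, below both 0 h libraries. The largest upward difference at 4 h was that of COX6B2, with 2.06 and 2.08 CPM at 0 h and 3.01 at 4 h.

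A trend over hours, fitted to all 7 libraries, was found for few members. Of 78 tested, 4 rose (5.13%) and 2 fell (2.56%), where 19.2% of all genes rose and 17.5% fell (edgeR quasi-likelihood test, adjusted p under 0.05). The median fitted change from 0 to 42 h was −0.01 for members, as for all genes, and the interquartile range of members was −0.23 to 0.26, compared with −0.59 to 0.59 for all genes. At an unadjusted p under 0.05 in edgeR, 7 members rose and 4 fell, where 3851 of the 15976 genes tested rose and 3703 fell. A curve with hours and hours squared, which allows a dip and return, changed in 9 of 78 members, against 47.7% of all genes (edgeR). Of these, COX6C, NDUFA5, NDUFS5 and SDHA were not called by the line. The calls depended on the scaling: on library totals, which lower the median of all genes at 42 h from −0.01 to −0.23, 0 members rose and 10 fell. On these totals 2112 of the 15976 genes rose and 4072 fell, so that 34.2% of all calls were rises in place of 52.4%. The share of members that fell was below that of all genes here too.

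All 4 members that rose encode subunits with GC-rich transcripts. NDUFA13, also known as GRIM-19 and needed to assemble complex I, had 57.7 and 113 CPM at 0 h and 71.6, 83.9, 99.6, 114 and 151 CPM at 4, 12, 20, 28 and 42 h. The 42 h library was above both 0 h libraries, which themselves lay far apart. Its fitted change was 0.87 ± 0.30 (SE, edgeR adjusted p = 0.0488).

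NDUFS7, which holds the last iron-sulfur cluster before ubiquinone in complex I, had 42.5 and 59.0 CPM at 0 h and 41.2, 47.8, 65.5, 61.9 and 81.4 CPM later. From 20 h on it exceeded both 0 h values. The fitted change was 0.76 ± 0.22 (edgeR adjusted p = 0.0301). ATP5F1D, the delta subunit of the ATP synthase stalk, went from 69.5 and 103 CPM to 75.6, 84.6, 109, 102 and 141 CPM, with a fitted change of 0.72 ± 0.22 (edgeR adjusted p = 0.0337). NDUFB11, an X-linked accessory subunit of the membrane arm of complex I, had close 0 h values of 68.7 and 64.6 CPM and then 53.9, 62.0, 68.8, 73.9 and 97.8 CPM (0.57 ± 0.18, edgeR adjusted p = 0.0365). It was below both 0 h libraries at 4 and 12 h and above both from 20 h. Exons of NDUFB11 overlap those of RBM10 on the other strand, which had 151 to 189 CPM, and since the sources used here do not state whether counting used strand, their reads cannot be told apart. NDUFA13 likewise shares exon sequence with YJEFN3 on its own strand, which had 4.18 to 9.90 CPM.

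The 2 members that fell belong to complex IV. COX7C, a small structural subunit, stood at 82.5 and 69.7 CPM at 0 h and at 57.5, 52.2, 42.2, 50.8 and 44.03 CPM later, so that every later library was below both 0 h libraries. Its fitted change was −0.75 ± 0.23 (edgeR adjusted p = 0.0333). COX6B2, the testis isoform of COX6B, had low levels of 2.06 and 2.08 CPM at 0 h and 3.01, 2.03, 2.09, 1.22 and 0.889 CPM from 4 to 42 h (−1.36 ± 0.40, edgeR adjusted p = 0.0304). COX6B1, its general counterpart, had 40.1 and 49.7 CPM at 0 h and 52.1 at 42 h, with a fitted change of 0.32 ± 0.22 (edgeR adjusted p = 0.293).

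Other members with a paralogous isoform gave no call over time under TMM alone, and COX6A1 was called with the GC and length offsets described below. COX6A1 had 61.1 and 80.1 CPM at 0 h and 53.2, 57.4, 70.9, 77.7 and 99.0 CPM later, the highest at 42 h (0.55, edgeR adjusted p = 0.0947). COX8A had 40.3 and 46.7 CPM at 0 h and 37.1 to 52.8 later. COX7A2 had 29.2 and 46.7 CPM and then 26.3 to 42.6, inside or below the range of the 0 h libraries. COX7B, another small complex IV subunit, had 16.4 and 14.01 CPM and then 10.3 to 12.2, below both 0 h libraries throughout (−0.46, edgeR adjusted p = 0.139). Of the c subunit genes, ATP5MC1 went from 17.0 and 15.6 CPM to 12.95 at 42 h, ATP5MC2 from 152 and 93.7 to 108, and ATP5MC3 from 82.4 and 102 to 98.9, and only ATP5MC1 ended below both 0 h libraries.

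**Figure D2:**
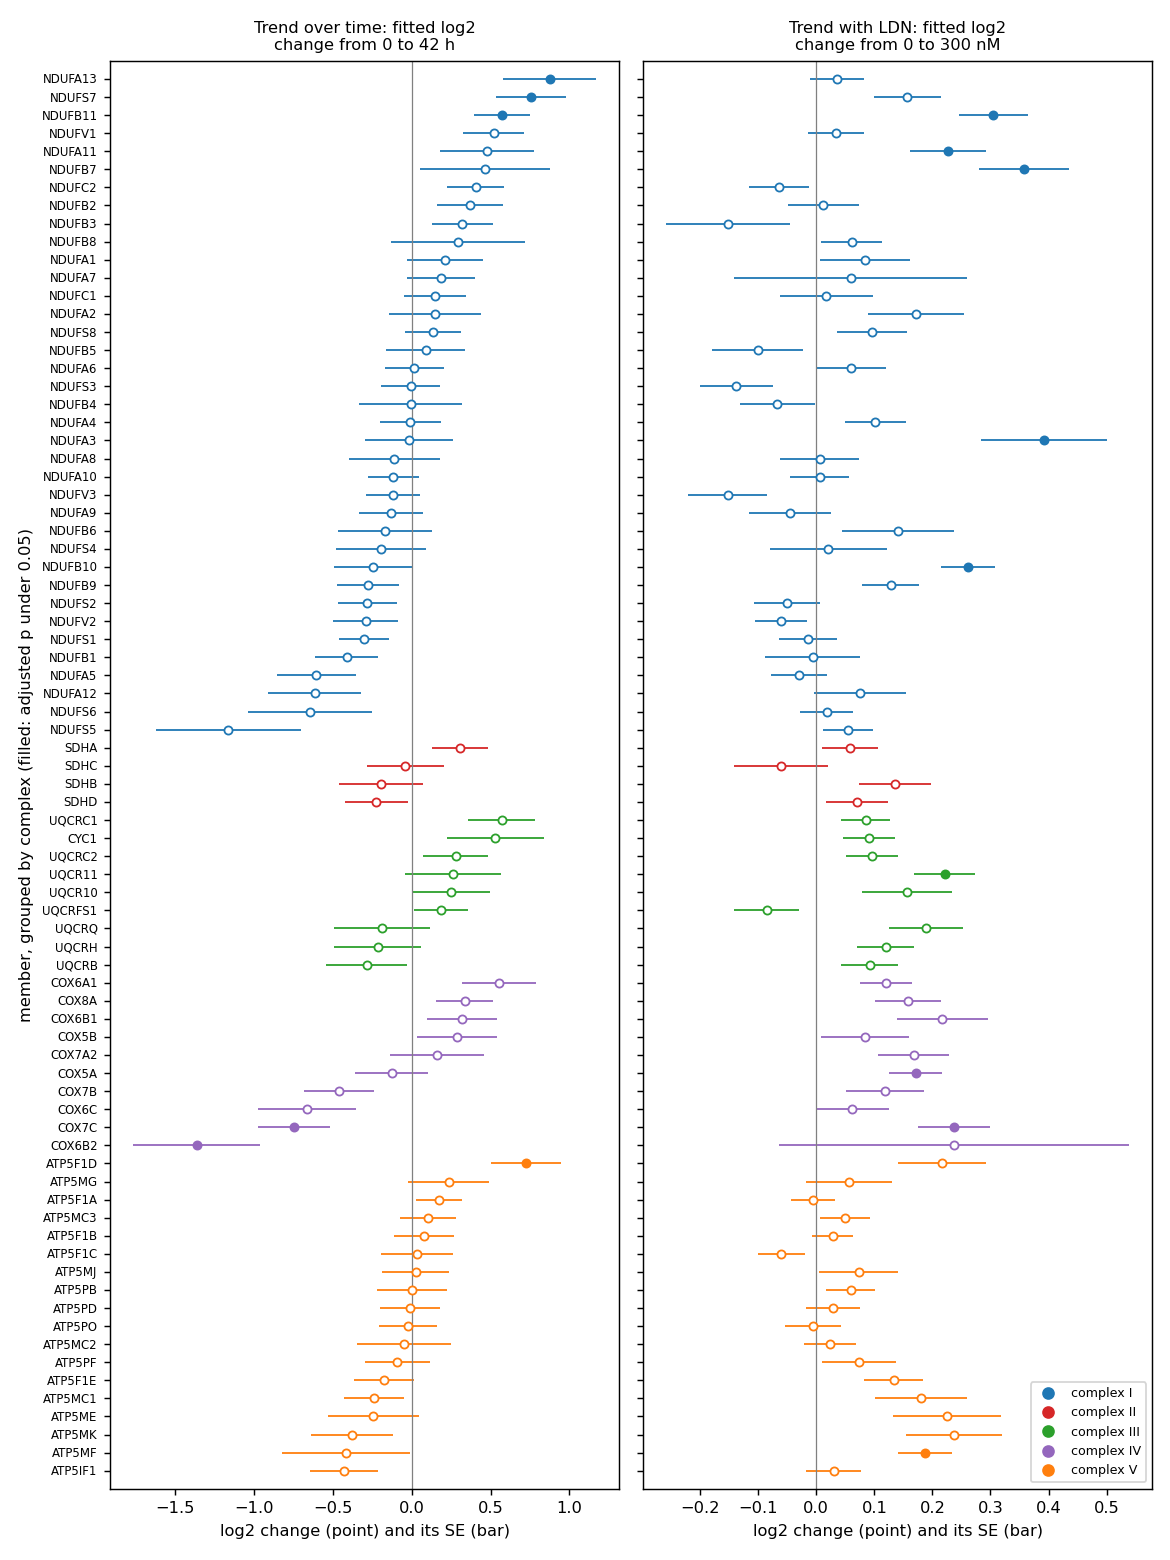
Fitted log2 change of each of 78 members from 0 to 42 h (left) and from 0 to 300 nM LDN at 5 h (right), with bars for the SE and members grouped by complex. Filled points passed an adjusted p of 0.05: 4 members above 0 and 2 below it at left, and 9 above it at right.

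The calls lay near the threshold and changed with the libraries used. Leaving out the 28 h library left 0 members past the threshold (2458 genes rose and 2061 fell in that edgeR fit), although the fitted changes stayed close: 0.89 for NDUFA13, 0.81 for NDUFS7, 0.79 for ATP5F1D, 0.62 for NDUFB11, −0.77 for COX7C and −1.27 for COX6B2 (edgeR adjusted p = 0.0556 to 0.0942). Leaving out 20 h kept 5 of the 6 calls, where 2960 of 15986 genes rose and 2683 fell. Without the 4 h library 0 rose and 1 fell (COX7C), where 2373 of 15854 genes rose and 2102 fell. Without 42 h 0 rose and 2 fell, namely NDUFA5 and NDUFS5, so that 0 of the 6 calls were kept. In that fit 1839 of 16042 genes rose and 1426 fell. Leaving out 0 h replicate 1 left 1 rise and 1 fall, where 2326 of 15951 genes rose and 1990 fell. Without 12 h 1 member rose and 1 fell, where 2617 of 15956 genes rose and 2360 fell. Without 0 h replicate 2, 16 members rose and 2 fell, where 3436 of 16022 genes rose and 3166 fell. The share of rises was then near that of all genes. Without replicate 2 the members that rose included CYC1, COX5B and UQCRC1.

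GC content moved with these values. Across the 78 members the fitted change over time had a Pearson r of 0.42 with transcript GC, and the difference of the 0 h replicates one of −0.50 (across genes of the same libraries, not independent replicates). Among all genes, the median fitted change was −0.29 in the quartile of lowest GC (27.9% to 42.3%) and 0.40 in that of highest GC (57.3% to 79.8%). NDUFA13 (61.6% GC), NDUFS7 (66.9%), ATP5F1D (69.5%) and NDUFB11 (58.9%) lie in the highest quartile and COX7C (40.7%) in the lowest, while COX6B2 (57.5%) lies in the highest and fell. With per-library offsets for GC and length, an alternative chosen after seeing the data, 4 members rose and 1 fell, of which 2 (NDUFA13 and COX6B2) were called without offsets too. With them the fitted change was 0.67 for NDUFA13 in place of 0.87, 0.40 for NDUFS7 in place of 0.76, 0.29 for ATP5F1D in place of 0.72, 0.39 for NDUFB11 in place of 0.57 and −0.39 for COX7C in place of −0.75, and it was −1.64 for COX6B2 in place of −1.36. The part of base composition in these results was otherwise not tested.

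**Figure D3:**
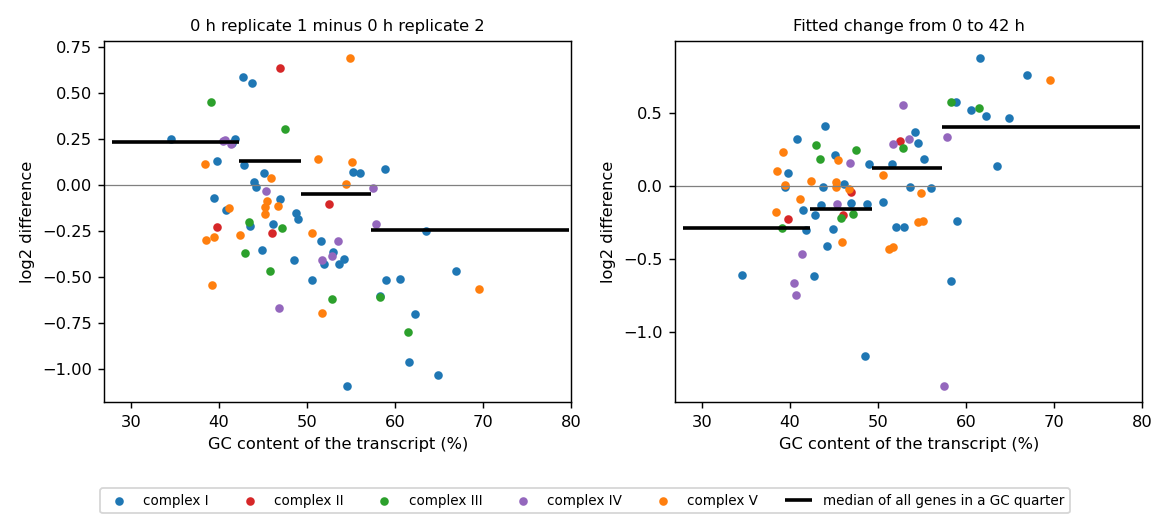
GC content of each member's transcript (%) against the log2 difference of 0 h replicate 1 minus replicate 2 (left) and the fitted log2 change from 0 to 42 h (right). Points are 78 members by complex and black lines the medians of all genes in each GC quartile, which go from −0.29 to 0.40 at right.

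Complex II, the succinate dehydrogenase that also serves the TCA cycle, showed no member past the threshold. SDHA, the flavoprotein subunit, had 77.3 and 83.1 CPM at 0 h, 74.3 to 78.9 from 4 to 28 h and 108 at 42 h. Only the 42 h library was above both 0 h values (fitted change 0.31 ± 0.18, edgeR adjusted p = 0.203). SDHB, the iron-sulfur subunit, had 36.0 and 43.3 CPM at 0 h and 26.3 to 34.9 later. Of the membrane anchors, SDHD had 47.8 and 56.0 CPM and then 38.4 to 44.5, below both 0 h libraries throughout as for SDHB. SDHC had 41.4 and 26.5 CPM and then 26.3 to 32.6, inside its 0 h range except at 20 h. Counts on the 3 annotated SDHA pseudogenes amounted to up to 23.3% of those on SDHA, so its level is uncertain.

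The second comparison asked whether the members followed the strength of BMP signaling at 5 h. The members that changed all rose with the receptor inhibitor, by small amounts. Of 78 tested, 9 (11.5%) rose and 0 fell across the 5 doses, where 10.4% of the 14907 genes tested rose and 10.9% fell (edgeR quasi-likelihood test). At this adjusted threshold the share of rises was thus near that of all genes, and the share of falls was below it. With DESeq2, 8 rose and 0 fell, where 1182 of the 14907 genes rose and 1207 fell. At an unadjusted p under 0.05 in edgeR, 23 members rose and 2 fell, where 2544 of the 14907 genes rose and 2496 fell. The median fitted change from 0 to 300 nM was 0.07 against 0.00 for all genes, with 61 of 78 members above 0. It was 0.16 in complex IV, 0.10 in III, 0.06 in II and V and 0.03 in I.

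NDUFB7, a complex I membrane-arm subunit imported through the disulfide relay, had 57.2, 69.5, 74.6, 74.4 and 76.3 CPM at 0, 10, 30, 100 and 300 nM LDN. The value without LDN was lowest, and most of the difference lay between 0 and 30 nM (0.36 ± 0.08 SE over the range, edgeR adjusted p = 0.0061). NDUFB10, which neighbours it in the complex, had 93.0, 101, 105, 110 and 112 CPM, each dose above the one before (0.26 ± 0.05, edgeR adjusted p = 0.00161). NDUFB11 had 59.8, 69.3, 68.2, 74.2 and 75.7 CPM (0.30 ± 0.06, edgeR adjusted p = 0.00312). Largest in fitted change, NDUFA3, a small single-pass complex I subunit, had 10.6, 10.96, 11.2, 12.3 and 13.96 CPM (0.39 ± 0.11, edgeR adjusted p = 0.0222).

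Outside complex I, COX7C had 95.02, 97.5, 93.5, 103 and 113 CPM (0.24 ± 0.06, edgeR adjusted p = 0.0162), and only 100 and 300 nM stood clear of the rest. COX7C was the member that fell over hours of BMP4 and rose with its inhibitor, and NDUFB11 rose in both. NDUFA11 (62.9 to 76.3 CPM), UQCR11 of complex III (52.0 to 61.3 CPM), ATP5MF (70.2 to 80.03 CPM) and COX5A, an early-assembling complex IV subunit (93.0 to 106 CPM), rose by fitted changes of 0.23, 0.22, 0.19 and 0.17. All these differences are under 1.5-fold. NDUFA3 shares exon sequence with TFPT on the other strand (6.64 to 12.8 CPM in the dose response, close to NDUFA3 itself), so its reads are uncertain. UQCR11 shares exon sequence with an unnamed protein-coding gene on its own strand (11.7 to 25.4 CPM in the dose response). ATP5MF does so with PTCD1 (16.1 to 20.8 CPM) and ATP5MF-PTCD1 (14.4 to 17.6 CPM). Reads of UQCR11 and ATP5MF are therefore uncertain too. In all, 45 members share an exon with another annotated gene.

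Scaling on library totals, with or without the mitochondrial genome, gave 9 rises, all 9 of them the members named here. With the GC and length offsets 10 rose, 8 of them among the 9, and NDUFA11 was not called. In that fit 1655 of 14907 genes rose. Across the 78 members the fitted change with dose had a Pearson r of 0.41 with transcript GC, against 0.04 over 14579 genes. These are genes of the same libraries and not independent replicates. The part of base composition in the LDN results was otherwise not tested. Without the 0 nM library 8 members rose, 2 of them among the 9, where 874 of 14852 genes rose. Without 300 nM 6 members rose, 4 of them among the 9, where 994 of 14929 genes rose. 

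**Figure D4:**
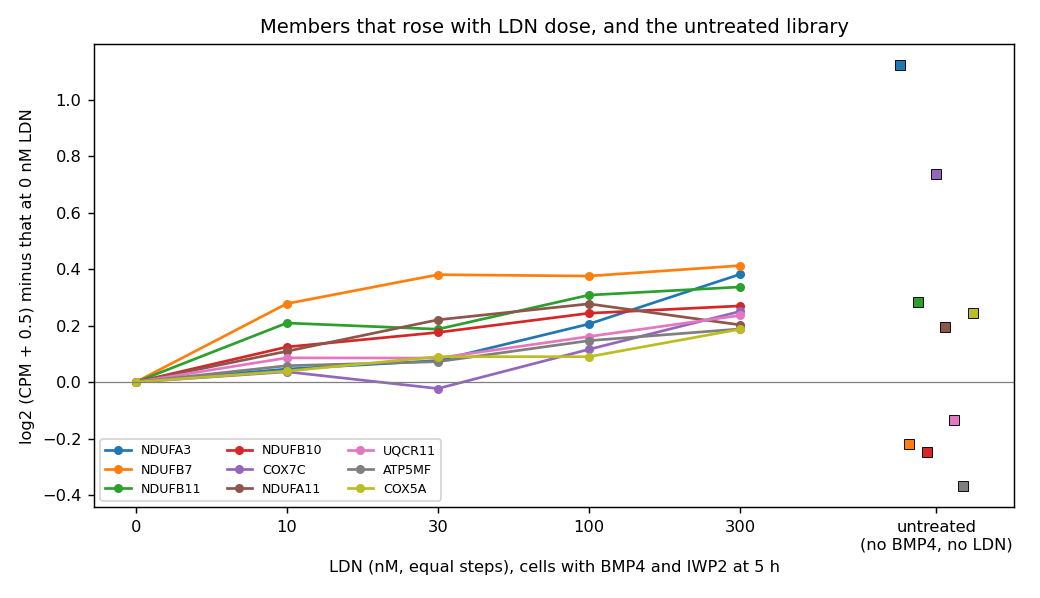
Log2 (CPM + 0.5) of the 9 members that rose with LDN, minus that at 0 nM, at each dose (lines) and in the untreated library (squares). At 300 nM the 9 genes lie between 0.19 and 0.41, and the untreated squares lie on both sides of 0.

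The untreated library, which received neither BMP4 nor IWP2, did not continue the LDN series for part of these genes. It differs from the LDN libraries in both agents, whose parts cannot be told apart here. Of 78 members, 33 (42.3%) were higher in the untreated library than in all 5 BMP4 libraries, against 33.9% of all genes, and 34 (43.6%) were lower than in all 5, against 35.9%. The median of the library without LDN minus the untreated one was −0.03, ranging from −1.12 to 0.76 over members. With 1 library each there is no replicate check and no test. Of members, 2 were at least 1.5-fold higher with BMP4 and IWP2 than in untreated cells (2.56%, against 11.6% of all genes) and 7 at least 1.5-fold lower (8.97%, against 6.34%). On library totals, which put the median of all genes at 0.11 in place of 0.02, these counts were 4 and 6. Only 3 of the 9 members that rose with LDN were still called when the untreated library was added as a step past 300 nM. The sign of the fitted change turned for NDUFB7, NDUFB10 and ATP5MF.

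Complex I held both extremes. NDUFS6 had 111 to 116 CPM in the 5 BMP4 libraries and 65.2 in the untreated one, and NDUFS5 had 147 to 156 against 97.3. Both had among the largest deficits at 4 h against 0 h in the time series, so that the 2 experiments differ in direction for them. NDUFA3 went the other way, with 10.6 to 13.96 CPM against 23.7. COX8A, the general isoform of the smallest complex IV subunit, had 56.5 to 63.0 CPM against 115, and COX7C 93.5 to 113 against 159. For the c subunit, ATP5MC1 had 24.96 to 28.8 CPM against 47.3 and ATP5MC2 100 to 104 against 161. The untreated library has 15600931 counts, against at least 28742690 in the others, and a mitochondrial share of 7.89%, and their part in these differences was not tested.

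At 42 h, 4 members were at least 1.5-fold above the 0 h mean (5.13%, against 24.2% of all genes) and 6 at least 1.5-fold below it (7.69%, against 23.9%). These were NDUFA13, NDUFS7, ATP5F1D and UQCRC1 above, and NDUFS5, COX6B2, COX7C, NDUFS6, NDUFA12 and COX6C below. On library totals, with the median of all genes at −0.23, 0 members were higher by this rule and 14 lower. UQCRC1, a core protein of complex III, had 115 and 176 CPM at 0 h and 221 at 42 h, and its trend did not pass (0.57, edgeR adjusted p = 0.0682).

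The subunits encoded by mitochondria went differently from their nuclear partners over time, in a series where 17.5% of all genes fell and 19.2% rose. Of 13, 10 fell and 0 rose, with a median fitted change of −1.34, and 8 fell without 0 h replicate 1 (−0.87). MT-ND4, a proton-pumping subunit of complex I, had 9351 and 5032 CPM at 0 h, 5248 at 4 h and 2394 at 42 h (−1.45 ± 0.33, edgeR adjusted p = 0.0109). MT-ND4L had the largest change, with 725 and 378 CPM at 0 h and 155 at 42 h. MT-ND5 and MT-CO2 fell by 1.47 and 1.40 on the log2 scale. In each of these 4, replicate 1 at 0 h was far above replicate 2. With LDN, 3 of 13 rose, by at most 0.18, and 0 fell, against 10.4% and 10.9% of all genes. MT-ND4 had 4560 to 4895 CPM with BMP4 against 9241 in untreated cells.

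Subunits outside the name pattern numbered 13, of which 6 could be tested. CYCS, the cytochrome c that carries electrons to complex IV, fell from 144 and 121 CPM at 0 h to 79.3 at 42 h (−0.74 ± 0.21, edgeR adjusted p = 0.0269), a call lost without 0 h replicate 1 and with the GC and length offsets. COX4I1, a core-binding complex IV subunit, had 92.0 and 156 CPM at 0 h and 156 at 42 h. None of the 6 changed with LDN.

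Assembly factors, which build the complexes and are not part of them, numbered 54, of which 14 fell and 2 rose over time, against 17.5% and 19.2% of all genes. On library totals 23 fell and 0 rose, where 4072 of 15976 genes fell and 2112 rose. Without 0 h replicate 1 the counts were 9 and 0, where 1990 of 15951 genes fell and 2326 rose. Without replicate 2 they were 11 and 6, where 3166 of 16022 genes fell and 3436 rose. The median of the assembly factors then turned from −0.13 to 0.01. NDUFAF7, a methyltransferase for complex I assembly, had 23.0 and 21.4 CPM at 0 h and 16.7, 15.2, 10.4, 9.59 and 9.14 CPM later (−1.36 ± 0.24, edgeR adjusted p = 0.00366). COX20, a chaperone of COX2, and NDUFAF4 fell by 1.17 and 1.16. SCO2, a copper chaperone of complex IV, rose (1.16, edgeR adjusted p = 0.0497) from 3.23 and 6.15 CPM to 10.9. With LDN 3 rose, led by COA8 (0.35), and 0 fell, against 10.4% and 10.9% of all genes, and with DESeq2 1 rose.

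Proteins of the mitochondrial ribosome, which translates the mitochondrial subunits, numbered 77. Over time 3 rose and 9 fell under TMM, where 19.2% of all genes rose and 17.5% fell. On library totals 0 of them rose and 23 fell, where 2112 of 15976 genes rose and 4072 fell. Without 0 h replicate 1 the counts were 0 and 5, where 2326 of 15951 genes rose and 1990 fell. Without replicate 2 the split turned to 17 and 5, where 3436 of 16022 genes rose and 3166 fell. Among the 77, MRPL42 fell most (−1.08) and MRPL23 rose most (0.85). With LDN 13 of 77 rose and 0 fell, against 10.4% and 10.9% of all genes. The count of rises was 10 on library totals, 7 with DESeq2 and 3 with the untreated library added as a further step. Among the 13 were MRPL36 (0.35) and MRPL14 (0.29).

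TCA cycle enzymes, which supply NADH and succinate, gave 3 rises and 1 fall of 18 over time, against 19.2% and 17.5% of all genes. With LDN they gave 0 calls, where 10.4% of all genes rose and 10.9% fell. OGDH, part of the 2-oxoglutarate dehydrogenase complex, had 155 and 152 CPM at 0 h and 157, 184, 241, 255 and 316 CPM later. Its fitted change of 1.10 ± 0.14 (edgeR adjusted p = 0.000876) kept its call in all 14 alternatives. The alpha subunit of succinyl-CoA ligase, SUCLG1, rose by 1.07 and the GTP-specific beta subunit SUCLG2 fell by 0.72. IDH3G rose by 0.72.

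Among regulators of mitochondrial biogenesis, 5 of 21 rose and 8 fell over time, against 19.2% and 17.5% of all genes. On library totals 2 rose and 10 fell, where 2112 of 15976 genes rose and 4072 fell. Without 0 h replicate 1 the counts were 2 and 4, where 2326 of 15951 genes rose and 1990 fell. With the GC and length offsets they were 3 and 6, where 3316 of 15976 genes rose and 2886 fell. PPARGC1A (PGC-1alpha), the coactivator known for driving respiratory genes, had 2.003 and 1.47 CPM at 0 h and 2.29, 2.02, 3.89, 12.3 and 21.7 CPM from 4 to 42 h. Its level was close to that of 0 h until 12 h and far above both 0 h libraries from 20 h (3.80 ± 0.41, edgeR adjusted p = 0.00034). Its relative PPARGC1B went the opposite way, from 47.3 and 33.1 CPM to 28.9, 26.97, 16.0, 12.0 and 3.44 CPM (−3.21 ± 0.36, edgeR adjusted p = 0.000438). Both kept their call in all 14 alternatives.

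Among the estrogen-related receptors, through which PGC-1 proteins act, ESRRG had 1.01 and 0.520 CPM at 0 h, 27.4 at 28 h and 5.09 at 42 h, so that the peak and not the end was highest (6.16 ± 1.65, edgeR adjusted p = 0.021). Because these values do not follow a line, the fitted change exceeds the difference between 0 h and 42 h. The call was lost in 4 of 14 alternatives, without 0 h replicate 1, 0 h replicate 2, 4 h or 28 h (adjusted p = 0.0566 to 0.0667 in edgeR). ESRRB rose by 2.13 at levels under 2 CPM. The factors named for the promoter cores moved less. NRF1 stood at 22.9 and 21.6 CPM at 0 h and 21.8 at 42 h (0.05 ± 0.20), GABPA at 44.7 and 39.6 and then 33.8 (−0.23 ± 0.18), and YY1 fell from 151 and 129 CPM to 92.1 (−0.61 ± 0.17, edgeR adjusted p = 0.0266).

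**Figure D5:**
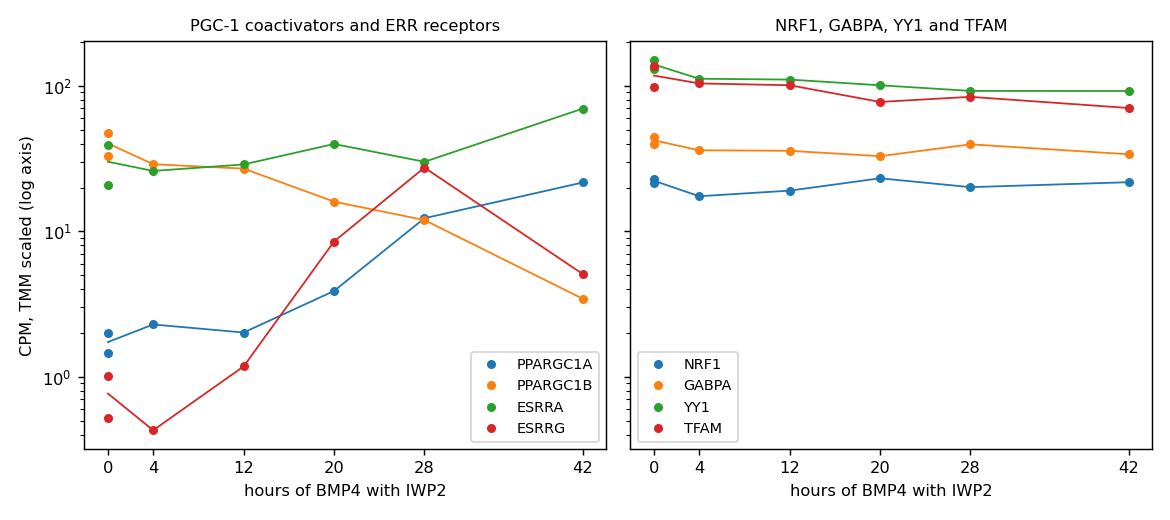
CPM scaled by TMM (log axis) of 8 regulators against hours of BMP4 with IWP2. Points are libraries and lines join the 0 h mean and later times. PPARGC1A and PPARGC1B cross at about 28 h, near 12 CPM, while NRF1 and GABPA stay within 17 to 45 CPM.

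With LDN, 6 of 19 regulators rose and 1 fell under TMM, against 10.4% and 10.9% of all genes. These counts of regulators were the same on library totals. MYC, which also drives mitochondrial gene expression, had 54.9, 71.4, 73.8, 87.2 and 102 CPM from 0 to 300 nM and 134 in untreated cells (0.82 ± 0.07, edgeR adjusted p = 2.77e-06). ESRRA rose by 0.36, PPARGC1B by 0.37 and TWNK, the mitochondrial helicase, by 0.31. CREB1 fell by 0.25.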

How the data were processed

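Per the labels and the study's methods, the authors trimmed reads with Cutadapt, aligned them to GRCh38 with STAR 2.7.8a and deposited expected counts per gene from RSEM 1.3.3, which are whole numbers, and the FPKM the authors normalized for length and depth. The annotation release and strand setting are not given in the sources used here. Members and gene lists were chosen with earlier results of these data known. Genes averaging 1 CPM or more were tested with edgeR 4.0.16 (TMM, quasi-likelihood, Benjamini-Hochberg adjustment at 0.05, two-sided), against hours over 7 libraries and against dose step over the 5 BMP4 libraries. Fitted changes are slopes times 42 h or 4 steps. DESeq2 1.42.0, other scalings and left-out libraries were alternatives. Single-library differences are log2 of CPM with 0.5 added, which understates changes of low genes, and have no test. FPKM served for levels between genes and as an alternative. Genes named were the members with the largest changes past the threshold, isoform sets, complex II and up to 4 of each other list. Members outside this rule (NDUFS5, NDUFS6, NDUFS1, ATP5F1B, ATP5F1E, ATP5MGL, UQCRC1, NDUFA11, UQCR11, ATP5MF, COX5A, NDUFA12, COX6C, NDUFA5, NDUFB3, NDUFC2) and NRF1, GABPA, YY1, CREB1, ESRRA, COA8 and COX4I1 were chosen after their values were seen. Positions and transcript GC are from GENCODE 44. Intervals and floors cover counting error only. R 4.3.3 and Python 3.11.15 were used.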

Additional observations from a re-analysis of the deposited data

How the results depend on the processing

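Over time, TMM scaling gave 4 rises, 2 falls and 6 changes among 78 members. Library totals gave 0, 10 and 10, totals without the mitochondrial genome 0, 14 and 14, the rank of the time 0 rises and 2 changes, and no filter on low counts 0 falls. Of all 15976 genes, 4072 fell on library totals and 4460 on totals without the mitochondrial genome. GC and length offsets, added after seeing the data, gave 1 fall. Leaving out 1 library each gave 0 to 16 rises, 0 to 2 falls and 0 to 18 changes. The 16 rises came without 0 h replicate 2, where 3436 of 16022 genes rose. With LDN, adding the untreated library gave 4 rises and 4 changes in place of 9, with fitted changes of −0.035 for NDUFB7, −0.055 for NDUFB10 and −0.12 for ATP5MF. Leaving out 1 dose each gave 6 to 12 rises and 0 falls. The median member at 42 h, −0.02, was −0.25 on library totals, −0.31 without the mitochondrial genome and −0.26 with FPKM, and 0.01 to −0.087 with either 0 h library left out. BMP4 without LDN minus untreated, −0.03, was 0.054 on library totals, −0.003 without the mitochondrial genome, −0.046 with DESeq2 size factors and 0.035 with FPKM. DESeq2's test stayed within 1.5 times of these counts for the 78 members, but not for every other list. The causes were not tested beyond the construction of the scalings. No paired analysis was possible because only 0 h had a replicate number.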
